A study of Rattus norvegicus with 8 samples.

Results

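The genes described here are 10 genes of cartilage other than collagens, listed by symbol: the matrix genes Acan, Hapln1, Chad, Comp, Matn1, Matn3, Snorc, Cnmd and Prg4, and the transcription factor gene Sox9. Of these 10 genes, 6 were found among the 14016 entries of the deposited gene table. RNA was sequenced from the thyroarytenoid (TA) muscle, the muscle of the vocal fold, of male Long Evans rats at 8 months of age. There were 4 rats with a knockout of Pink1, a mitochondrial kinase gene linked to familial Parkinson's disease (Pink1-/-), and 4 wildtype (WT) rats. The values used are the authors' average levels over all 8 libraries in log2 CPM, with 1 value per gene. CPM is a read count relative to the total of its library, put here on the log2 scale. How the authors scaled the libraries is not given. The values pool the samples of both genotypes and cannot show in how many libraries, or in which genotype, a gene was read. A difference between Pink1-/- and WT rats was not analysed here, and library depth and variation among rats are unknown, because the values read here are averages.

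Cartilage owes its stiffness under load to large proteoglycans that hold water inside a collagen network. Aggrecan, the main one, binds to long chains of hyaluronan, and link protein locks that bond in place. Smaller proteins, among them the matrilins and cartilage oligomeric matrix protein, bridge the proteoglycans and the collagen fibrils. Chondrocytes, the cells that make this matrix, depend on the transcription factor SOX9. The TA muscle attaches to the thyroid and arytenoid cartilages of the larynx, so muscle and cartilage lie next to each other at dissection.

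In the pooled average of the TA samples, all 6 genes with an entry stood at low read levels. All 6 lay below the median of the table, which was 3.14 log2 CPM. Their averages lay between 0.08 and 2.64 log2 CPM, with a median of 2.02. Together they summed to 22.6 CPM, or 0.0022% of the summed level of the table. The highest single entry of the table, at 18.20 log2 CPM, makes up a large part of that summed level. These levels count reads and are not divided by transcript length, so an order among genes is an order of reads and not of transcripts. With 1 value per gene, no pair of neighbours in that order can be said to differ beyond a spread between rats.

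**Figure D1:**
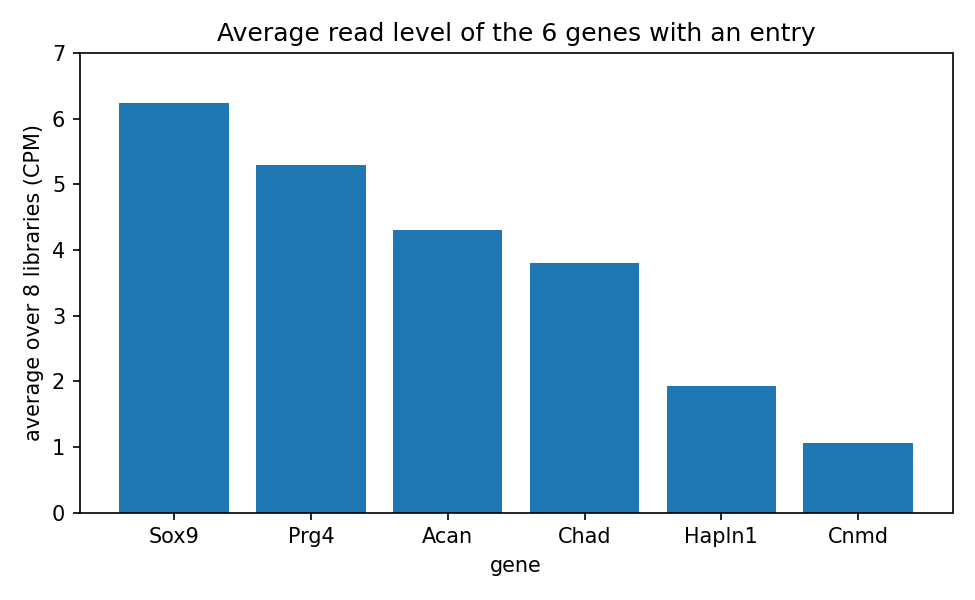
Average level of each of the 6 cartilage genes with an entry, in CPM on the vertical axis, 1 bar per gene over all 8 libraries of both genotypes. The bars run between 6.24 CPM for Sox9 and 1.06 CPM for Cnmd, and no error bars are drawn because the average is 1 value per gene.

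Acan encodes aggrecan, the large proteoglycan that fills the cartilage matrix. Its entry (ENSRNOG00000028992) averaged 2.11 log2 CPM, or 4.31 CPM, and 30.9% of all entries lay below it. Hapln1 encodes the link protein that fastens aggrecan to hyaluronan. Its entry (ENSRNOG00000032002) averaged 0.95 log2 CPM, or 1.94 CPM, with 14.6% of entries below it. Both partners of the aggrecan complex thus had an entry, Acan above the lower quartile of the table and Hapln1 below it. The pooled average cannot show in how many of the 8 libraries either was read.

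Chad encodes chondroadherin, a leucine-rich repeat protein of the matrix to which chondrocytes attach. It averaged 1.93 log2 CPM, or 3.80 CPM (ENSRNOG00000003304), with 28.1% of entries below it. Cnmd encodes chondromodulin, a membrane protein whose secreted part keeps blood vessels out of cartilage. It had the fewest reads of the 6, at 0.08 log2 CPM or 1.06 CPM (ENSRNOG00000012821), and only 4.89% of entries lay below it. The lowest entry of the table was at 0.395 CPM, so Cnmd stood near the lower end of what the table holds.

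Prg4 encodes lubricin, a glycoprotein that lubricates joint and tendon surfaces and is made by cells of the cartilage surface and of the synovial lining. It averaged 2.41 log2 CPM, or 5.30 CPM (ENSRNOG00000002385), and 36.0% of entries lay below it. Sox9, the transcription factor gene, had the most reads of the 6, at 2.64 log2 CPM or 6.24 CPM (ENSRNOG00000002607), with 40.2% of entries below it. Sox9 is also active outside cartilage, for example in gland and other epithelial cells, and Prg4 in the synovium, so neither marks chondrocytes alone. These 2 genes made up 27.6% (Sox9) and 23.4% (Prg4) of the summed level of the 6.

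From Sox9 to Cnmd the levels spanned 2.56 on the log2 scale. Sox9, Prg4, Acan and Chad formed a close group, with steps of 0.24, 0.30 and 0.18 on the log2 scale between neighbours. A wider step of 0.97 separated Chad and Hapln1, and one of 0.87 separated Hapln1 and Cnmd. Within the table, 2 of the 6, Hapln1 and Cnmd, lay below its lower quartile of 1.73 log2 CPM.

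**Figure D2:**
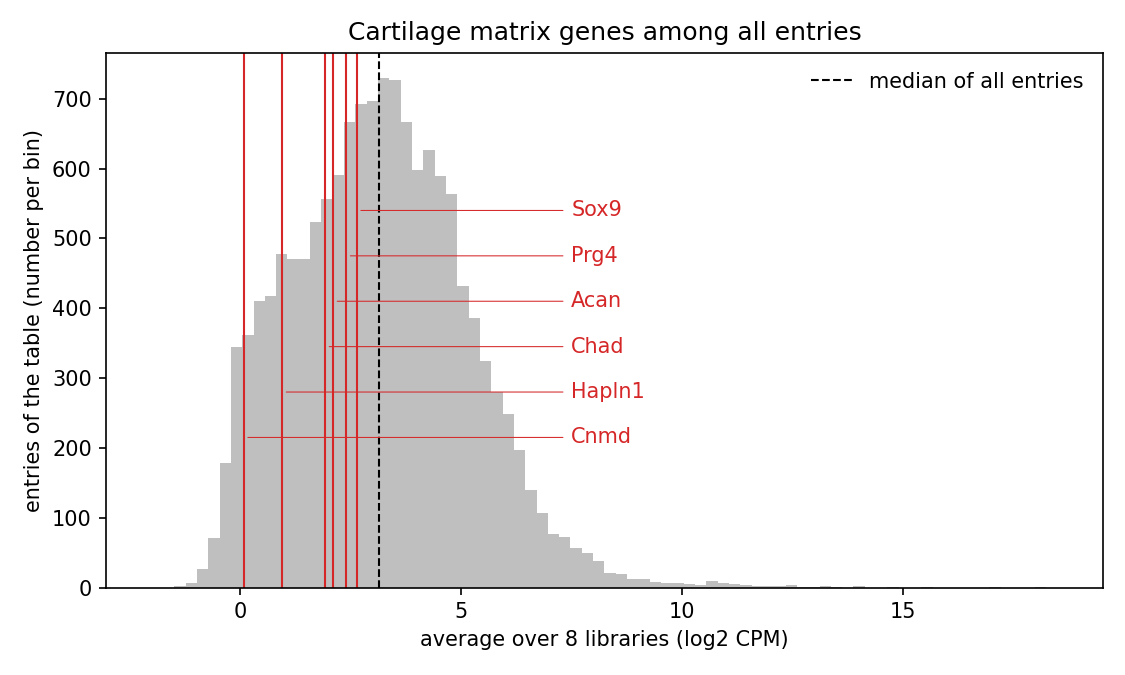
Number of entries of the table per bin (vertical axis) by average level in log2 CPM (horizontal axis), with a red line at each cartilage gene and a dashed line at the median of all entries. All 6 red lines stand left of the dashed line at 3.14 log2 CPM, and Cnmd stands farthest left at 0.08.

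The other 4 genes, Comp, Matn1, Matn3 and Snorc, had no entry, also when the older symbols of the RefSeq gene table were tried where it gives any. Comp encodes cartilage oligomeric matrix protein, which binds collagens in cartilage and tendon, Matn1 and Matn3 encode matrilins, the adaptor proteins of the matrix, and Snorc encodes a small membrane proteoglycan of chondrocytes. A missing entry gives no level and cannot be read as a low one. Among 15 markers of skeletal muscle, 4 had no entry either, namely Myh1, Myh2, Ttn and Atp2a1, although the tissue is muscle and the other 11 averaged at least 1177 CPM. The choice of genes in the table is not described in the sources used here.

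The labelled tissue was checked against its defining markers. The 11 skeletal muscle markers with an entry had a median of 10.98 log2 CPM and were led by Myh4, a fast myosin heavy chain gene, at 27521 CPM, Neb, the gene of the thin filament protein nebulin, at 6429 CPM, and Ckm, muscle creatine kinase, at 4535 CPM. Their summed level was 2379 times that of the 6 cartilage genes. The cartilage genes were thus a minor part of the reads of a tissue that carried the markers of skeletal muscle.

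Genes of cartilage collagens, the fibrils that the matrix proteins bind, were read at levels of the same order. Of 7 such genes, 6 had an entry, between 1.42 and 5.90 CPM, and all 6 lay below the table's median. Col11a2, which encodes a chain of the fibril-core collagen XI, averaged 5.90 CPM, Col10a1, a collagen of hypertrophic cartilage, 2.57 CPM, and Col11a1 2.35 CPM. Col2a1, the main fibril collagen of cartilage, averaged 1.42 CPM, and Col9a1 had no entry. The 6 genes described here summed to 22.6 CPM, against 15.2 CPM for the 6 collagen genes. The labels of these samples say only that muscles were removed and frozen. Carry-over of laryngeal cartilage, and its part in these levels, was not tested.

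A further list of 21 cartilage genes, with enzymes and regulators of the chondrocyte among them, had 16 with an entry and 11 of these below the table's median. Its median was 2.33 log2 CPM. Sox6, a partner of SOX9 that is also active in muscle, averaged 28.8 CPM, Cytl1, a secreted protein gene of chondrocytes, 25.2 CPM, and Fgfr3, a growth factor receptor gene of cartilage and epithelia, 21.7 CPM. Epyc, which encodes a small proteoglycan of cartilage, averaged 3.70 CPM and Matn4, a matrilin gene with a wider distribution, 1.44 CPM. Ucma and Clec3a, 2 further cartilage genes of this list, averaged 1.09 and 0.949 CPM, with 5.33% and 3.20% of entries below them. Of the rest with an entry, Papss2 averaged 18.1, Wwp2 10.2, Xylt1 6.41, Slc26a2 5.78 and Cilp 5.56 CPM. Sox5 averaged 4.53, Chst3 4.26, Csgalnact1 3.32 and Susd5 1.78 CPM. Hapln3, Cilp2, Scrg1, Mia and Chst11 of this list had no entry. Of 10 genes of hypertrophic cartilage and bone, 5 had an entry, all below the median, between 1.17 and 8.03 CPM. Alpl, the gene of an alkaline phosphatase of mineralizing tissue, averaged 8.03 CPM and Dmp1, a matrix gene of bone and dentin, 3.58 CPM. Runx2, a transcription factor gene of bone and hypertrophic cartilage, averaged 3.23 CPM. Ihh, Mmp13 and the bone genes Sp7, Ibsp and Bglap had no entry.

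The 6 cartilage genes had a median of 2.02 log2 CPM, against 5.45 for the small proteoglycans, 7.20 for fibroblast markers, 3.19 for tendon markers and 2.11 for markers of the synovial lining. The small leucine-rich proteoglycans, which bind collagen in most connective tissue, had entries for 8 of 8 genes and summed to 956.8 CPM, with Dcn (decorin) at 647.6 CPM, Lum (lumican) at 144 CPM and Ogn (osteoglycin) at 59.2 CPM. Fibroblast markers, also 8 of 8, summed to 1921 CPM, 84.8 times the 6 cartilage genes, led by Dcn, Fn1 (fibronectin) at 426 CPM and Col3a1 at 350 CPM. Dcn and Lum stand in both of these lists. Tendon markers summed to 46.7 CPM over 4 of 6. Egr1, an early response gene that is not specific to tendon, averaged 24.0 CPM and Thbs4, a thrombospondin gene related to Comp, 16.0 CPM. Fmod (fibromodulin), also on the small proteoglycan list, averaged 5.24 CPM and Scx, a transcription factor gene of tendon, 1.46 CPM. The tendon genes Tnmd and Mkx had no entry. Of 6 markers of the synovial lining, Clic5, a gene also known outside the synovium, averaged 140.6 of the list's summed 172.9 CPM and Cd55 21.2 CPM, with the hyaluronan synthase gene Has1 at 0.914 CPM. Prg4, at 5.30 CPM, is on that list as well.

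The marker lists hold unlike numbers of genes, so a sum also follows the size of its list. Of the 16 marker lists in all, 14 had a larger summed level than the 6 cartilage genes. The smaller ones were the cartilage collagens and the genes of hypertrophic cartilage and bone, at 17.6 CPM. By median level, 12 lists stood above the cartilage genes. Among these 12 were endothelium at 5.33 log2 CPM, smooth muscle at 4.91, macrophages at 4.77 and Schwann cells at 4.63. The 4 below were the adipocyte list at 1.87 log2 CPM, hypertrophic cartilage and bone at 1.69, cartilage collagens at 0.94 and the thyroid follicle list at 0.66. Markers of epithelium and glands, which the larynx also holds, had entries. Squamous epithelium markers summed to 967.4 CPM over 8 of 9 genes, and airway gland and ciliated markers to 3675 CPM over 6 of 8, of which Muc5b, a mucin gene, gave 3423 CPM, while Foxj1, a gene of ciliated cells, and Ltf, a gland gene, had no entry. Whether such tissue was in the samples was not tested. The remaining cell type lists lay between 79.6 CPM for adipocytes (5 genes with an entry) and 257.6 CPM for smooth muscle (5 genes). Thyroid follicle stood at 80.8 (5 genes), macrophages at 193 (7 genes), Schwann cells at 199.8 (7 genes) and endothelium at 241 CPM (6 genes). Of these sums, Tg, the thyroglobulin gene, gave 75.4 CPM for thyroid follicle, and Fabp4 gave 58.8 CPM for adipocytes. The other thyroid follicle genes with an entry lay between 0.535 and 2.28 CPM, and Pax8 had no entry. In bulk tissue, fewer cells of a type and less RNA per cell cannot be told apart.

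**Figure D3:**
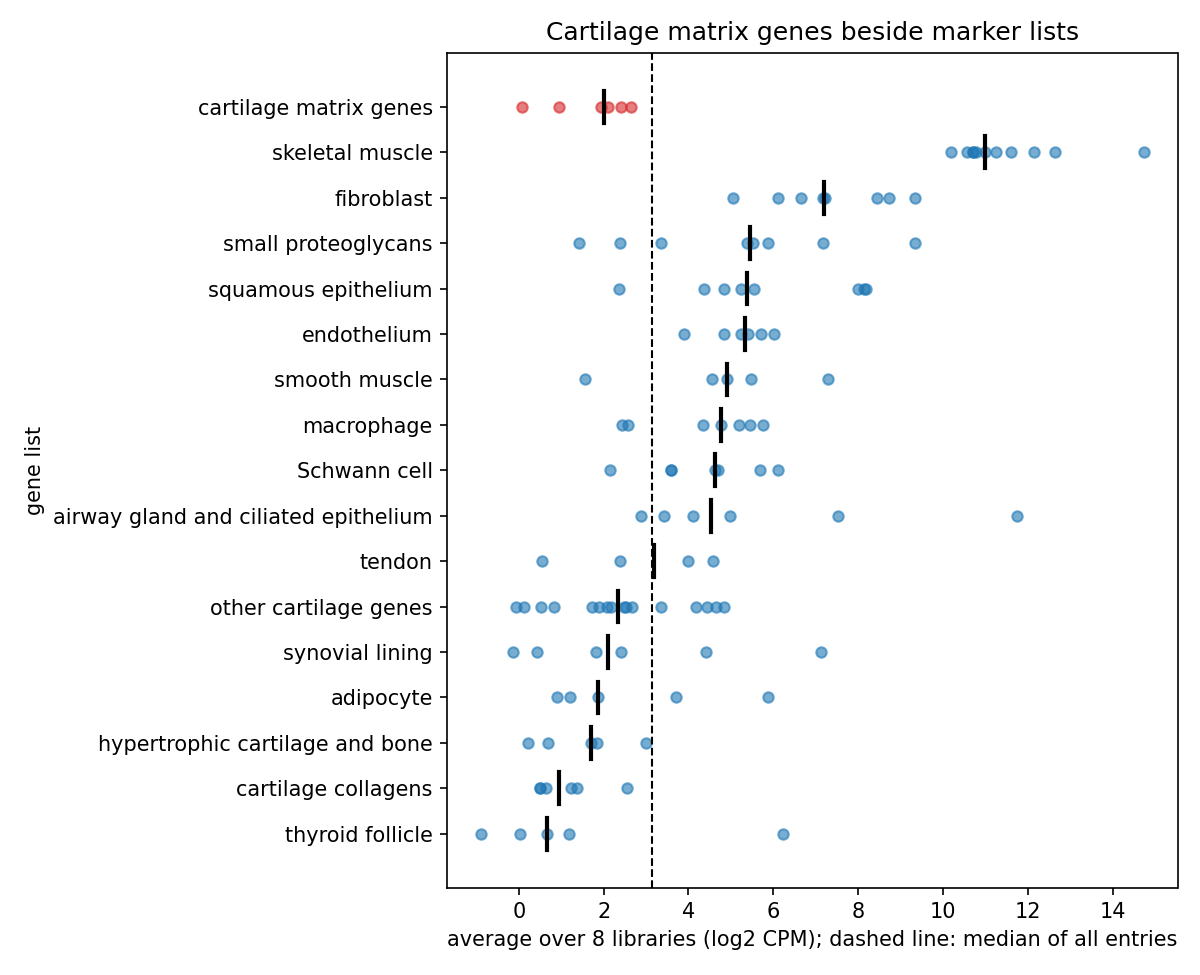
Average level in log2 CPM (horizontal axis) of each gene with an entry, 1 row per list, with 1 point per gene, a black bar at the list's median and a dashed line at the median of all entries. The 6 cartilage genes (red, median 2.02) stand between the other cartilage genes (median 2.33) and the cartilage collagens (median 0.94). The synovial lining (median 2.11) and adipocyte (median 1.87) lists stand closest. Skeletal muscle (median 10.98) and fibroblasts (median 7.20) stand to the right.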

How the data were processed

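TA muscle from 4 Pink1-/- and 4 WT rats was sequenced as RNA, and the genotype of each rat came from its label. As the authors' tools, the processing notes list RSEM (version not given in the sources used here) and edgeR 3.9. Neither the genome build and annotation nor the library scaling and any filter on low counts are given there. The deposited table holds 1 average log2 CPM per gene over all samples, made by the authors, and 0 columns of values per sample. It also holds the authors' own comparison of Pink1-/- with WT (log2 fold change, likelihood ratio, p-value, adjusted p-value and status), which was not used here. So no test was run and no genotype difference is given.

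Rows were matched by symbol, and the row of the highest average was taken where a symbol stood on several of them (64 symbols). Older symbols came from RefSeq (GRCr8). CPM was computed as 2 to the power of the average, so it is a back-transformed value and not a count. The table sums to 1017595 CPM. Members and lists were chosen with earlier results of these data known. Every member was to be named, and of each list the 3 genes of highest average. Of the cell type lists outside cartilage, skeletal muscle and connective tissue, sums are given instead. Medians are given for the adipocyte, thyroid follicle, endothelium, smooth muscle, macrophage and Schwann cell lists. Among the 3 highest of these lists, only Muc5b, Tg and Fabp4 are named. Genes named outside this rule were chosen after their values were seen. They are Col2a1, Scx, Has1, those with no entry, and all genes of the further cartilage list below its 3 highest. No protein table was used, so levels per coding length were not computed and no protein is shown. Ranks and sums were tested on simulated data. The computations ran in Python 3.11.15 with pandas 2.3.3, numpy 2.4.6 and, for plots, matplotlib 3.10.9.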

Additional observations from a re-analysis of the deposited data

How the results depend on the processing

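Each of the 6 genes stands on 1 row, so taking the lowest in place of the highest row changed no value. Among the 13458 entries with an average CPM of at least 1, the median share of entries below the 6 genes was 26.6%, against 29.5% over all entries, and 0.951% of them lay below Cnmd, against 4.89%. Without Sox9, the gene with the most reads, the sum was 16.4 CPM, against 22.6 CPM. By median in place of the sum, 12 of 16 lists stood above the cartilage genes, against 14. Levels per kilobase of coding length were not run, because no protein lengths were used here. Leaving out a rat was not run, and no paired analysis was possible because the average is 1 value over all 8 libraries. Depth per library is unknown, so no counting interval can be given.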
